A study of Rattus norvegicus with 24 samples.

Results

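Genes of macrophage fusion and osteoclast formation, namely Tnfrsf11a, Nfatc1, Dcstamp, Ocstamp, Atp6v0d2, Tspan10, Acp5 and Ctsk, were followed in rat skin after injection of a gel. These 8 were taken by name from a table of 23095 genes, each name occurred once, and all 8 passed the filter on low counts. Skin came from the back of Sprague-Dawley rats 7 days after T-gel, which the study title describes as a biodegradable polymer, or a saline control was injected intradermally (ID) or subcutaneously (SC). The ID saline, SC saline, ID gel and SC gel groups held 6 bulk RNA libraries each, 24 in all. Whether each replicate is its own animal is not stated in the labels, which also name no sex, age or gel composition, and p-values therefore measure the spread between these samples, which may be technical. In bulk tissue, fewer cells of a type and less RNA per cell cannot be told apart.

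Macrophages can fuse into multinucleated cells, as osteoclasts in bone or as foreign-body giant cells around implanted material. In osteoclast precursors, RANK ligand binds its receptor RANK (Tnfrsf11a) and adaptors with ITAM motifs send a second signal, and both converge on the transcription factor Nfatc1. Nfatc1 in turn drives the fusion proteins Dcstamp and Ocstamp, the proton pump subunit Atp6v0d2, and the secreted enzymes Acp5 and Ctsk, which act in the acid space under the cell.

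Library totals were 14024353 to 18821730 counts, and 14763 genes were tested. Levels are CPM, counts scaled to library size with trimmed mean of M-values (TMM) factors. These factors ran from 0.845 to 1.224, the lowest in SC saline replicate 2. They were 0.860 to 0.947 in ID gel and 1.068 to 1.224 in SC gel, without overlap. Small differences in CPM between the gel groups therefore depend on this scaling. Gel and saline skin differed widely: with edgeR's quasi-likelihood test and Benjamini-Hochberg adjustment at 0.05, 73.6% of the genes tested were called in ID gel against ID saline and 50.8% in SC gel against SC saline. The sum of 8 general macrophage markers (Cd68, Mpeg1, Csf1r, Aif1, Cd14, Itgam, Cybb and Adgre1, none of them at 0) was 344 to 798 CPM in ID saline and 475 to 624 in SC saline, against 6729 to 9878 in ID gel and 616 to 2552 in SC gel. The sum of 5 skeletal muscle markers was 25012 to 64582 CPM in the saline libraries, lowest in SC saline replicates 1 and 3 (25253 and 25012), against 9.81 to 13868 in ID gel and 9.27 to 1297 in SC gel.

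Windows from 250 bases before to 50 bases after the annotated start were found for 3 of the 8 genes in the RefSeq promoter table (build GRCr8). They are shown because Nfatc1 binds sites with the core GGAAA, whose matches on either strand are in capitals (TTTCC is the core on the opposite strand). Acp5 has a pair of windows, from alternative starts.
Ctsk, chr2:185747298-185747597, plus strand: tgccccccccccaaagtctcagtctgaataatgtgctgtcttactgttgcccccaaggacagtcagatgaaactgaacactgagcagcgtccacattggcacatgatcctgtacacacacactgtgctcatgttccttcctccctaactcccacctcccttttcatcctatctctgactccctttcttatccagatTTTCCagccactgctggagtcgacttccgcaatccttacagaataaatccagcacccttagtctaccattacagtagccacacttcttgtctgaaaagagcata
Ocstamp, chr3:174560858-174561157, minus strand: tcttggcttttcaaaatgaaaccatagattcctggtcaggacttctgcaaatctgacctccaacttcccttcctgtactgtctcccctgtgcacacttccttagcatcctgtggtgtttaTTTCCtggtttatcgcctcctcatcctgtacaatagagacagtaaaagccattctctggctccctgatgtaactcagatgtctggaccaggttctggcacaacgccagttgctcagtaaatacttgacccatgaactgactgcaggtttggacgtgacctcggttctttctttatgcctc
Acp5, chr8:28943880-28944179, minus strand: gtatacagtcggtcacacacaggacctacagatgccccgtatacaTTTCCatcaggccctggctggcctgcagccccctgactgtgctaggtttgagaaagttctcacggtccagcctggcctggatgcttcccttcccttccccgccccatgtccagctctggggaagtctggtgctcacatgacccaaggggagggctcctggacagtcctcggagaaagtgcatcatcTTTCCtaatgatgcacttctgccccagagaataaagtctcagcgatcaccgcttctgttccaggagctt

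Ctsk held 1 match, whose first base lay at -54 from the start, and Ocstamp 1 at -130. The printed Acp5 window held 2, at -205 and -19, and the other Acp5 window (chr8:28945881-28946180, minus strand) held 0. At least 1 GGAAA on either strand occurred in 62.7% of all 33469 windows in the table, so a match is common. None of the 4 windows held TGANTCA, the letters of an AP-1 site, or CACGTG, an E-box, on either strand; 7.33% and 6.42% of all windows held them.

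Transcripts of Dcstamp, Ocstamp, Atp6v0d2 and Tspan10 were absent or nearly so in saline skin and appeared in all 12 gel libraries. Acp5 and Ctsk, present in all libraries, rose at both sites and more at the ID site. Tnfrsf11a rose modestly at both sites, and Nfatc1 rose by a small amount in ID gel and was not called in SC gel. In ID gel against ID saline, 8 of 8 were higher by edgeR's quasi-likelihood test, where 36.6% of all genes tested were higher, and none of the 8 overlapped between the groups, where 29.1% of genes were higher without overlap. In SC gel against SC saline, 7 of 8 were higher, with 24.7% of all genes higher, and 5 did not overlap, with 11.0% of all genes higher without overlap. For the 4 genes with counts throughout, the log2 fold change ran from 0.43 to 1.90 in ID and from -0.14 to 1.16 in SC, against medians of -0.01 and -0.00 over all genes tested; the other 4 have bounds or ratios in place of a fitted fold.

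In the deposited table the ID saline columns stand beside those of SC gel and the SC saline columns beside those of ID gel. Groups here follow the labels, and each gel group was also set against the saline group of the other site. The calls of gel against saline for the 8 genes were kept there, but the difference between the sites was no longer called for Nfatc1 and turned in sign for Dcstamp, Atp6v0d2 and Tnfrsf11a. Values that set gel against gel do not depend on the saline labels.

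**Figure D1:**
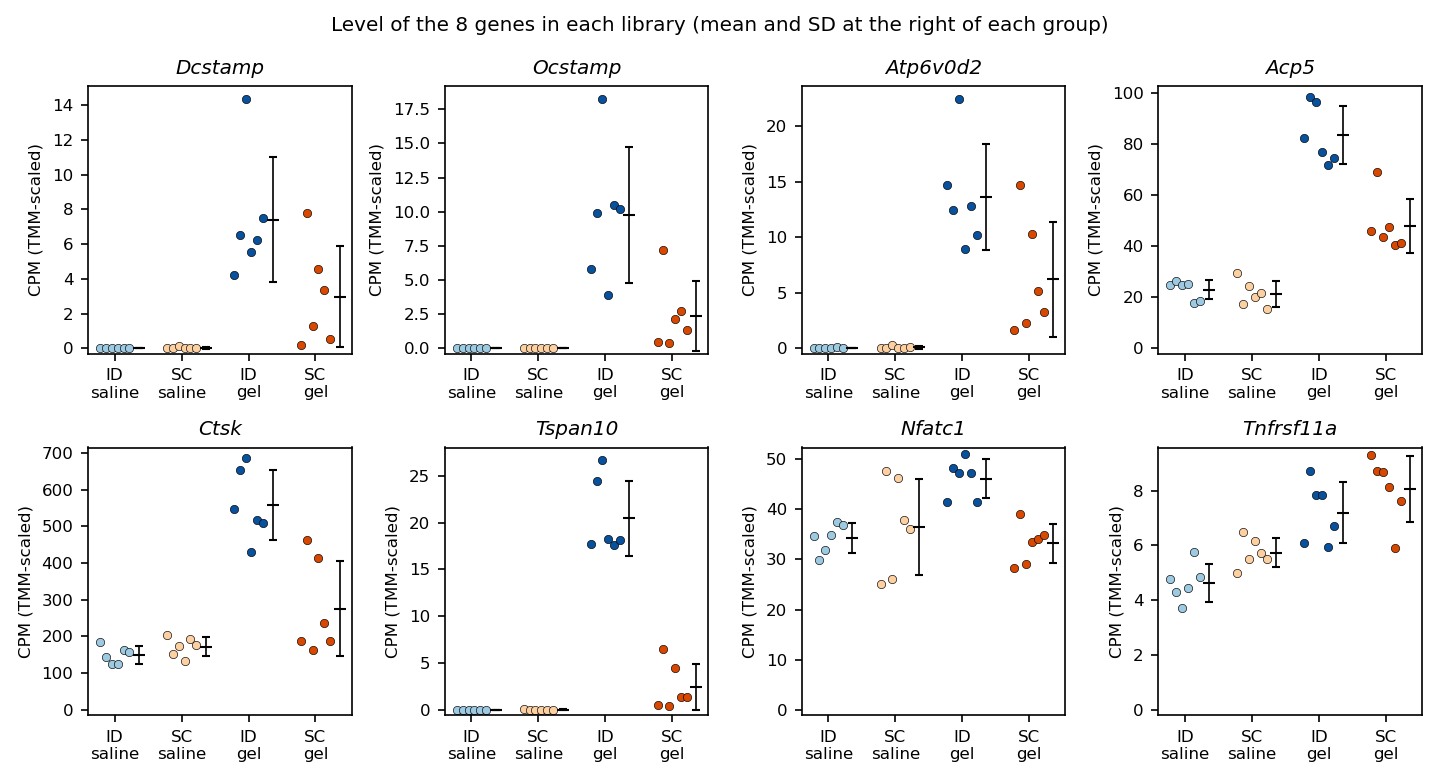
CPM (TMM-scaled, linear axes from 0) of each of the 8 genes in every library of ID saline, SC saline, ID gel and SC gel, with the mean and SD at the right of each group (n = 6). Dcstamp, Ocstamp, Atp6v0d2 and Tspan10 lie at or near 0 in saline, and Tspan10 parts the gel groups, at 17.6 to 26.7 CPM in ID gel and 0.454 to 6.49 in SC gel.

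Tnfrsf11a encodes RANK, the receptor for RANK ligand (ENSRNOG00000015615, chromosome 13, 21928408 to 21986695, in the coordinates of the file). It measured 3.71, 4.60 and 5.77 CPM (lowest, median, highest) in ID saline and 5.94, 7.26 and 8.73 in ID gel. In SC saline it measured 5.01, 5.63 and 6.49 CPM, and in SC gel 5.90, 8.41 and 9.29. The ID groups did not overlap, and the lowest SC gel library (replicate 5) fell within the SC saline range. The gel effect was 0.63 ± 0.13 (log2 fold change ± SE, 1.55-fold, adjusted p = 9.96e-05) in ID and 0.49 ± 0.12 (1.40-fold, adjusted p = 0.00225) in SC. The SC call was lost with gel replicates 4 to 6 alone (0.34, adjusted p = 0.0686). Neither the difference between the effects (0.14 ± 0.18, adjusted p = 0.505) nor ID gel against SC gel (-0.16 ± 0.12, adjusted p = 0.245) was called. On the FPKM scale ID gel was below SC gel, 2.38 ± 0.303 against 3.39 ± 0.560 FPKM, and limma on log2(FPKM + 1) called it lower (-0.37, adjusted p = 0.000339).

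Nfatc1, the transcription factor that switches on the osteoclast programme, lies on chromosome 18, 74046904 to 74156028 (ENSRNOG00000017146). Its level was 29.9, 34.7 and 37.5 CPM in ID saline and 41.4, 47.2 and 51.0 in ID gel, with no overlap. SC saline spanned 25.1, 37.0 and 47.7 CPM and SC gel 28.4, 33.8 and 39.1, so the SC gel range lay inside that of SC saline. The lowest SC saline values, 25.1 and 26.1 CPM, came from replicates 1 and 3, the libraries with the lowest muscle markers; the part of muscle content in this was not tested. The gel effect was 0.43 ± 0.13 in ID (1.35-fold, adjusted p = 0.00461), held at 0.25 to 0.46 over 24 other settings, and -0.14 ± 0.13 in SC (adjusted p = 0.386), where FPKM turned the sign (0.12). The difference between the effects, 0.57 ± 0.18 (adjusted p = 0.0109), was no longer called without SC saline replicate 2 (0.33, adjusted p = 0.116), on FPKM (0.13, adjusted p = 0.422), with the saline group of the other site (0.38, adjusted p = 0.0739), or with gel replicates 1 to 3 or 4 to 6 alone (adjusted p = 0.0584 and 0.0824). ID gel was above SC gel without overlap in CPM (0.47 ± 0.13, adjusted p = 0.00236), but was not called on FPKM (0.12, adjusted p = 0.272) or with gel replicates 1 to 3 or 4 to 6 alone (adjusted p = 0.0504 and 0.0664).

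Dcstamp (dendritic cell-specific transmembrane protein; ENSRNOG00000004704, chromosome 7, 70807581 to 70822078) is a multi-pass membrane protein that in mice is required for the fusion of osteoclasts and of foreign-body giant cells. No count was found in the 6 ID saline libraries, and in SC saline replicate 3 alone held any, 2 counts or 0.128 CPM. ID gel held 4.23, 6.38 and 14.4 CPM (lowest, median, highest), and SC gel 0.208, 2.34 and 7.80. Both gel groups lay wholly above their saline groups, and the SC gel range crossed that of ID gel in replicates 2 and 4 (7.80 and 4.54). With a floor of 3 counts over the group, Dcstamp was at least 228-fold higher in ID gel than in ID saline (adjusted p = 6.44e-07). In SC it stood at 305 counts against 2, a ratio of 137 with a 95% Clopper-Pearson interval of 37.6 to 1137 (adjusted p = 4.84e-05). ID gel exceeded SC gel by 1.33 ± 0.55 (adjusted p = 0.0414), a call lost in 12 of 22 other settings. These were DESeq2 (adjusted p = 0.122), the gel groups fitted alone (0.116), gel replicates 1 to 3 (0.153) or 4 to 6 (0.0885), and leaving out any 1 of 8 gel libraries (ID gel 2, 3, 5 or 6, SC gel 1, 3, 5 or 6, up to 0.127).

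Ocstamp (osteoclast stimulatory transmembrane protein; ENSRNOG00000019110, chromosome 3, 154132328 to 154136991), a related protein that in mice acts beside Dcstamp in fusion, had no count in any of the 12 saline libraries. ID gel held 5.81, 9.91, 18.3, 3.92, 10.5 and 10.2 CPM in replicates 1 to 6, and SC gel 0.467, 7.23, 0.397, 2.14, 2.74 and 1.32. The gene was thus detected in every gel library, with SC gel replicates 1 and 3 lowest. It was at least 301-fold higher in ID gel than in ID saline (adjusted p = 5.09e-06) and at least 75.5-fold higher in SC gel than in SC saline (adjusted p = 0.000309). ID gel exceeded SC gel by 2.03 ± 0.60 (adjusted p = 0.00787), not called with gel replicates 1 to 3 alone (2.05, adjusted p = 0.111). Intervals and floors cover counting error only.

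Tspan10 showed the widest gap between the gel groups. It is a tetraspanin of the TspanC8 group, which escort the protease Adam10 to the cell surface, and is also known from pigment cells (ENSRNOG00000046076, chromosome 10, 105715961 to 105719813). Saline libraries held 1 count in all, in SC saline replicate 1 (0.0511 CPM). ID gel held 17.7, 24.4, 26.7, 18.3, 17.6 and 18.1 CPM in replicates 1 to 6, and SC gel 0.467, 6.49, 0.454, 4.47, 1.32 and 1.37. The gel groups did not overlap, and ID gel varied little (highest over lowest 1.52) where SC gel varied 14.3-fold. The gene was at least 631-fold higher in ID gel than in ID saline (adjusted p = 4.99e-09), and in SC stood at 247 counts against 1, a ratio of 222 (interval 39.5 to 8802, adjusted p = 1.77e-05). ID gel exceeded SC gel by 3.09 ± 0.47 (8.49-fold, adjusted p = 1.17e-05), called in all 22 other settings run (2.67 to 3.76). The sum of 8 melanocyte markers was 22.9 to 73.7 CPM in ID gel and 41.4 to 78.2 in SC gel, ranges that overlapped, and 7.22 to 32.4 in saline, with Tyr and Slc45a2 at 0 in SC saline. The part of pigment cells in the Tspan10 level was not tested.

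Atp6v0d2 (ENSRNOG00000006926, chromosome 5, 33336264 to 33385354) encodes the d2 subunit of the vacuolar proton pump (V-ATPase), whose loss in mice impairs fusion, while the d1 subunit Atp6v0d1 is made in most cells. Saline skin held 2 counts in ID and 8 in SC, 5 of them in SC saline replicate 3 (0.321 CPM). ID gel held 14.7, 12.5, 22.5, 8.95, 12.9 and 10.2 CPM in replicates 1 to 6, and SC gel 1.61, 14.7, 2.27, 10.3, 5.16 and 3.26. Every gel library was above every saline library, and SC gel replicates 2 and 4 reached the ID gel range. The ratio was 618 in ID (interval 171 to 5106, adjusted p = 4.89e-10) and 71.7 in SC (36.2 to 167, adjusted p = 1.67e-07). ID gel exceeded SC gel by 1.14 ± 0.40 (adjusted p = 0.0155), a call lost without ID gel replicate 3 (0.91, adjusted p = 0.0560), with the gel groups fitted alone (1.01, adjusted p = 0.0795) and with gel replicates 4 to 6 alone (0.77, adjusted p = 0.118).

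Per length, Atp6v0d1 remained the major d subunit at both sites. At the ID site Atp6v0d1 stood at 38.4 ± 0.999 FPKM with saline and 91.6 ± 8.22 with gel, and at the SC site at 37.8 ± 2.34 and 50.2 ± 7.40 (SD, n = 6). On TMM-scaled counts edgeR's quasi-likelihood test called Atp6v0d1 higher in ID gel (1.41 ± 0.09, adjusted p = 3.9e-12). The same test did not call it in SC gel (0.18 ± 0.09, adjusted p = 0.0886). In FPKM, however, the SC groups did not overlap, at 35.5 to 40.7 with saline and 46.1 to 65.1 with gel. Atp6v0d2 made up 0.0448% ± 0.0695 of d subunit FPKM in ID saline and 0.175% ± 0.249 in SC saline. The share was 9.23% ± 2.39 in ID gel (5.97 to 12.8) and 8.85% ± 5.61 in SC gel (2.99 to 16.4). These shares did not differ beyond their spread (0.39 points, exact two-sided permutation p = 0.879, n = 6 in each group), and leaving out 1 library gave -0.79 to 1.89 points.

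**Figure D2:**
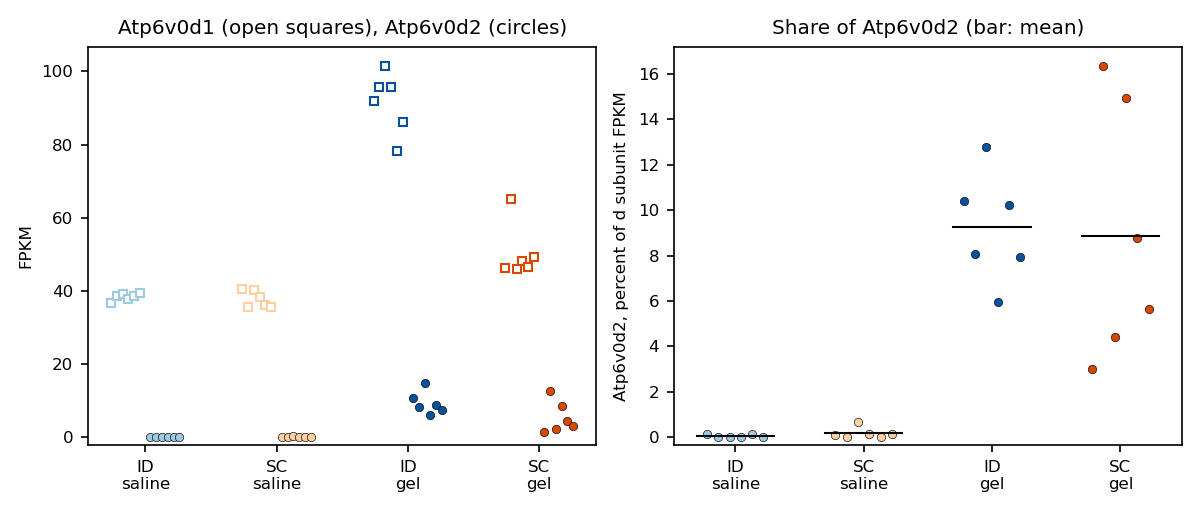
Left, deposited FPKM of Atp6v0d1 (open squares) and Atp6v0d2 (circles) in each library; right, Atp6v0d2 as a percent of the d subunit FPKM in each library, with group means as bars (n = 6). Mean shares are 9.23% in ID gel and 8.85% in SC gel, with SC gel spread from 2.99 to 16.4%.

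Acp5, tartrate-resistant acid phosphatase, the classical stain of osteoclasts (ENSRNOG00000046261, chromosome 8, 20663985 to 20667929), was already present in saline skin. It measured 17.5, 24.7 and 26.2 CPM (lowest, median, highest) in ID saline and 71.8, 79.6 and 98.5 in ID gel, and 15.3, 20.8 and 29.3 in SC saline and 40.4, 44.7 and 68.8 in SC gel. In CPM, gel groups lay above saline groups without overlap, and ID gel lay above SC gel without overlap. In FPKM the gel groups overlapped, at 36.4 to 48.3 in ID gel and 25.4 to 43.5 in SC gel. The rise was 1.87 ± 0.15 in ID (3.65-fold, adjusted p = 2.01e-10) and 1.16 ± 0.15 in SC (2.24-fold, adjusted p = 1.56e-06). The ID effect exceeded the SC effect by 0.70 ± 0.21 (adjusted p = 0.00726), not called on FPKM (0.32, adjusted p = 0.236).

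Ctsk, cathepsin K, a protease that cleaves fibrillar collagen and is made by osteoclasts and also by fibroblasts (ENSRNOG00000021155, chromosome 2, 183058569 to 183069550), was the most abundant of the 8 per length in every group. It measured 124, 151 and 184 CPM in ID saline and 431, 533 and 687 in ID gel, and 132, 175 and 204 in SC saline and 164, 212 and 464 in SC gel. SC gel replicates 2 and 4 stood at 464 and 414 CPM, and the other 4 SC gel libraries at 164 to 235, of which 3 lay within the SC saline range. The rise was 1.90 ± 0.22 in ID (3.73-fold, adjusted p = 4.27e-08) and 0.68 ± 0.21 in SC (1.60-fold, adjusted p = 0.0100), and the difference of 1.22 ± 0.30 (adjusted p = 0.00137) was called in all 35 other settings run (0.82 to 1.40). The sum of 7 fibroblast markers was 49735 to 84933 CPM in SC saline, 29465 to 60228 in SC gel, 21665 to 46227 in ID saline and 22582 to 51242 in ID gel. Of these 7 markers, 2 were higher and 2 lower in ID gel, and none higher and 3 lower in SC gel.

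The direct comparison of the gel groups called 7 of 8 higher in ID gel, all but Tnfrsf11a. There 68.1% of all genes tested were called, 40.1% higher and 28.0% lower. In CPM 3 of the 7, Acp5, Tspan10 and Nfatc1, did not overlap, where 27.4% of all genes were higher without overlap. In FPKM the gel groups overlapped for Acp5 and Nfatc1. By edgeR's quasi-likelihood test the gel effects differed by site for 3 of 8, Acp5, Ctsk and Nfatc1, all larger in ID. Of all genes, 55.8% were called for this difference, 32.8% with a higher and 23.0% with a lower effect in ID. Which of the 8 differed by site depended on the tool; Ctsk was called by edgeR, DESeq2, voom and limma on FPKM. With edgeR the difference was not called for Dcstamp, Atp6v0d2 and Tspan10 (adjusted p 0.152 to 0.383), and for Ocstamp, with no saline counts, its SE was undefined. DESeq2 called Atp6v0d2 (2.95, adjusted p = 0.0236) and Tspan10 (3.49, adjusted p = 0.0329), and voom called Tspan10 (3.99, adjusted p = 0.00609). On log2(FPKM + 1), limma called Tspan10 (2.69), Ocstamp (1.33, adjusted p = 0.00448) and Atp6v0d2 (adjusted p = 0.0365), and not Acp5 or Nfatc1. With 0.1 FPKM added it also called Dcstamp (1.65, adjusted p = 0.0443). Between ID saline and SC saline 0 of 8 were called by edgeR, against 3.22% of all genes, and 0 by DESeq2 or limma. DESeq2 called 1038 of 14762 genes there, and voom 399 higher and 289 lower of 14763. On log2(FPKM + 1) limma called 460 higher and 194 lower of 13261. Tnfrsf11a alone had an unadjusted p under 0.05 there (0.0238, -0.31 ± 0.13).

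Levels set per length gave the order of the 8 genes within a group, in mean FPKM ± SD. In ID saline Ctsk (104 ± 13.1) stood above Acp5 (12.8 ± 2.39), Nfatc1 (7.48 ± 0.552) and Tnfrsf11a (1.70 ± 0.205), and the others were at or under 0.0169. SC saline kept that order, with 117 ± 22.6, 11.8 ± 3.62, 7.67 ± 1.67 and 2.05 ± 0.171, and the others at or under 0.0692. In ID gel the order was Ctsk (350 ± 53.4), Acp5 (42.0 ± 4.81), Tspan10 (18.4 ± 3.03), Atp6v0d2 (9.41 ± 3.10), Nfatc1 (9.07 ± 0.499), Ocstamp (4.78 ± 2.30), Dcstamp (3.21 ± 1.46) and Tnfrsf11a (2.38 ± 0.303). Of these neighbours, Atp6v0d2 and Nfatc1, Ocstamp and Dcstamp, and Dcstamp and Tnfrsf11a differed by less than the larger of their SDs. In SC gel Tspan10 fell to sixth place, with Ctsk (217 ± 95.6), Acp5 (30.6 ± 6.54), Nfatc1 (8.28 ± 0.904), Atp6v0d2 (5.36 ± 4.39), Tnfrsf11a (3.39 ± 0.560), Tspan10 (2.72 ± 2.75), Dcstamp (1.61 ± 1.57) and Ocstamp (1.46 ± 1.56). From Nfatc1 downwards each SC gel gene differed from the next by less than the larger of their SDs.

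SC gel libraries differed strongly among themselves in the genes that were near 0 in saline. Their highest value over the lowest was 37.5 for Dcstamp, 18.2 for Ocstamp, 14.3 for Tspan10 and 9.12 for Atp6v0d2, against 2.83 for Ctsk, 1.70 for Acp5, 1.58 for Tnfrsf11a and 1.38 for Nfatc1. Replicate 2 was highest for 7 of the 8, and Tnfrsf11a was highest in replicate 1, which was lowest for 3 others. The macrophage sum varied along with them, at 740, 2398, 616, 2552, 1259 and 1099 CPM in SC gel replicates 1 to 6. In ID gel the same ratios were 1.23 to 4.67, and replicate 3 was highest for 5 of the 8. SC gel replicate 3 had a macrophage sum of 616 CPM, inside the SC saline range. That library held Atp6v0d2 at 2.27 CPM, Ocstamp at 0.397 and Tspan10 at 0.454, each above the highest SC saline library. The markers in the sum moved differently in SC gel, with 5 of 8 higher and Adgre1 lower (-0.76). The sum alone therefore does not give the macrophage content.

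**Figure D3:**
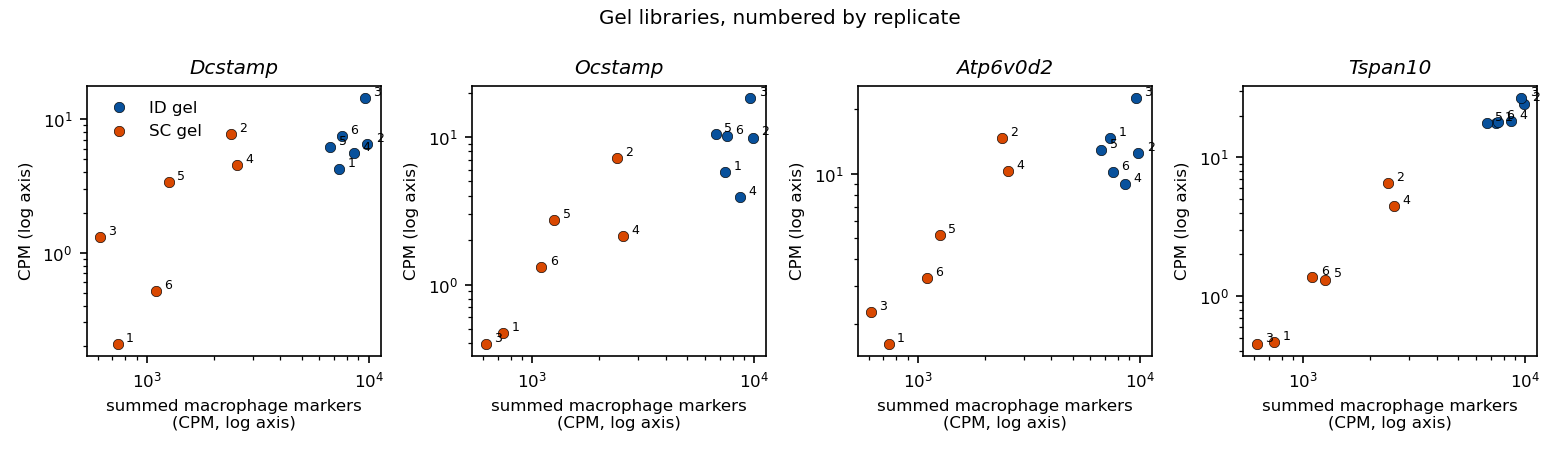
CPM of Dcstamp, Ocstamp, Atp6v0d2 and Tspan10 (log axes) against the summed CPM of 8 general macrophage markers (log axis) in the 12 gel libraries, numbered by replicate. SC gel replicates 2 and 4 have the largest sums of their group (2398 and 2552) and SC gel replicates 1 and 3 the smallest (740 and 616), and ID gel lies at 6729 to 9878.

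Set against the macrophage markers of the same library, most of the 8 were lower in ID gel than in SC gel, and Tspan10 was the exception. Per 1000 CPM of macrophage markers, Acp5 stood at 10.1 ± 0.766 CPM in ID gel and 41.6 ± 20.3 in SC gel, Ctsk at 67.7 ± 9.55 and 206 ± 43.6, and Atp6v0d2 at 1.65 ± 0.505 and 3.85 ± 1.33. On the log2 scale, with 0.5 CPM added to each gene, ID gel minus SC gel was -1.34 for Atp6v0d2, -1.59 for Ctsk, -1.91 for Acp5, -2.24 for Nfatc1 and -2.87 for Tnfrsf11a, each without overlap (exact two-sided permutation test over 924 splits, p = 0.00216, the smallest it can give, 0.00346 adjusted over the 8). Dcstamp was lower by the same test (-1.12, adjusted exact p = 0.0322), a call lost with 0.1 CPM added (-0.76, adjusted p = 0.218) and without any 1 of 7 gel libraries (ID gel 1, 2 or 4, SC gel 2, 3, 4 or 5). Ocstamp was not called (-0.62, adjusted exact p = 0.143). The marker sums themselves did not overlap, at 6729 to 9878 CPM in ID gel and 616 to 2552 in SC gel. Nfatc1 (1.39-fold) and Tnfrsf11a (0.89-fold) differed little between the gel groups, so their lower ratios in ID gel follow from the denominator. Acp5, Ctsk, Nfatc1 and Tnfrsf11a also had counts in all saline libraries, where ratios were not computed. For these genes the ratio cannot show whether macrophages held less of them.

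Tspan10 was higher per macrophage marker in ID gel, 2.46 ± 0.220 against 1.35 ± 0.774 CPM per 1000 (0.53 on the log2 scale, adjusted exact permutation p = 0.0289). That call was lost without SC gel replicate 3 or 5 (adjusted p = 0.0519 in each case). The choice of marker mattered: against Csf1r alone Dcstamp (0.15) and Ocstamp (0.65) changed sign and Atp6v0d2 (-0.071) and Ctsk (-0.32) were no longer called, and against Mpeg1 alone Tspan10 was at -0.029 and Ocstamp at -1.17 was called. Csf1r was 1.42 ± 0.17 higher in ID gel than in SC gel and Mpeg1 2.80 ± 0.39, so the denominators differ in their own contrast. Cells other than macrophages also make Ctsk, Nfatc1 and Tnfrsf11a, and their part in these ratios was not tested.

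**Figure D4:**
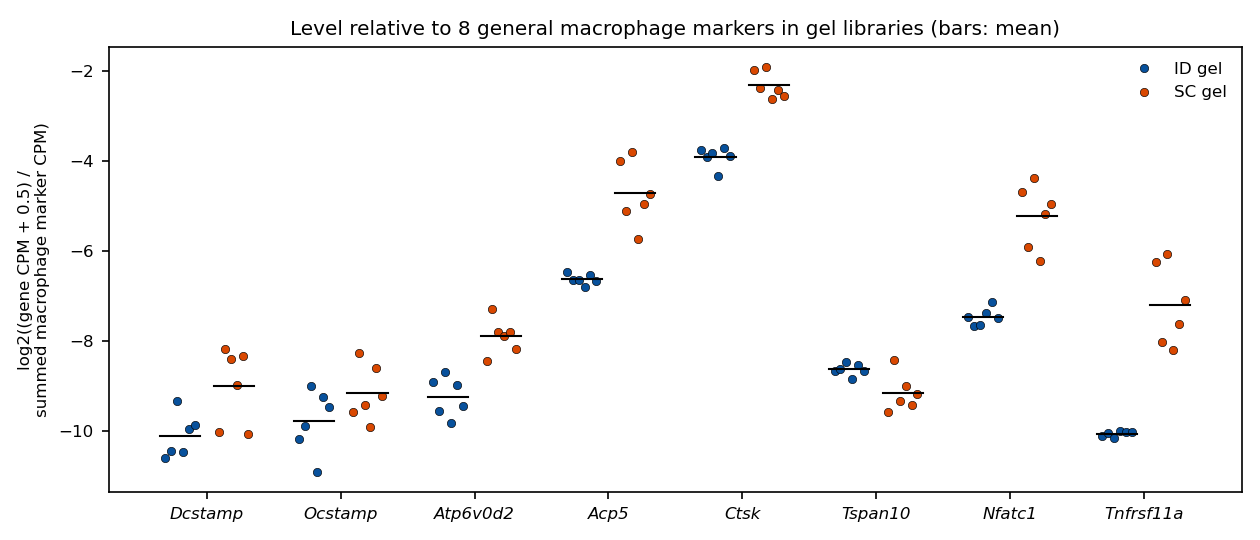
Log2 of each gene's CPM (0.5 added) over the summed CPM of 8 macrophage markers in each ID gel and SC gel library, with bars at the group means (n = 6). Tspan10 is the gene with a higher mean in ID gel (by 0.53); Acp5, Ctsk, Atp6v0d2, Nfatc1 and Tnfrsf11a are lower in ID gel without overlap.

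In the lists that follow, values are log2 fold changes of gel against saline, ID first and SC second, and a call is by edgeR's quasi-likelihood test. Upstream of the 8 genes, the 12 genes of RANK ligand and M-CSF signalling had 11 tested; 8 were higher and 2 lower in ID gel (median 1.18), and 4 higher and 1 lower in SC gel (median 0.13). RANK ligand itself, Tnfsf11, had too few counts for the test, with 3 counts for saline and 77 for gel at the ID site (0.0740 to 1.65 CPM per gel library) and 4 and 11 at the SC site. Its decoy receptor Tnfrsf11b was not called at either site (0.30 ± 0.28, adjusted p = 0.325, and 0.00 ± 0.28, adjusted p = 0.997). Csf1, the growth factor M-CSF, stood at 77.4 ± 27.3 CPM in ID saline and 293 ± 54.3 in ID gel and rose there (1.92 ± 0.21, adjusted p = 1.77e-08), against 97.1 ± 20.2 and 94.6 ± 22.7 CPM in SC (-0.04 ± 0.20, adjusted p = 0.887). Its receptor Csf1r followed the same pattern (1.63 ± 0.17 in ID, and 0.13 ± 0.17 with adjusted p = 0.550 in SC). Traf6, the adaptor of RANK, rose at both sites (0.51 and 0.41), as did Relb (2.09 and 0.64) and Nfkb2 (1.91 and 0.69) of the alternative NF-kB arm. Lgr4, described in mice as another receptor of RANK ligand, fell at both (-1.98 and -0.49), and Il34, the other ligand of Csf1r, fell in ID and rose in SC (-0.46 and 0.36).

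Genes listed for co-stimulation through ITAM adaptors, with the inhibitory Lilrb4 among them, were higher in nearly all cases. Of 10 tested genes of 11 listed, 10 were higher in ID gel (median 3.88) and 9 in SC gel (median 1.14), with none lower. Trem2, a lipid-sensing receptor, went from 4.66 ± 2.23 to 368 ± 66.2 CPM in ID (6.31 ± 0.47) and from 5.36 ± 1.71 to 50.3 ± 40.2 in SC (3.22 ± 0.42). Its adaptor Tyrobp rose by 3.94 and 1.48, and the inhibitory receptor Lilrb4, which has ITIM motifs, by 8.99 and 5.01. Siglec15, which pairs with that adaptor in osteoclasts, rose by 5.55 ± 0.49 in ID and 4.84 ± 0.54 in SC. Oscar, a collagen receptor of osteoclasts, rose in ID (4.69 ± 0.30) and was not called in SC (0.49 ± 0.28, adjusted p = 0.155).

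Transcription factors around Nfatc1 were mixed. Of 15 tested, 8 were higher and 4 lower in ID gel (median 0.63), and 4 higher and 5 lower in SC gel (median -0.15). Spi1 (PU.1), which specifies myeloid cells, rose at both sites (3.93 and 1.51), as did Tfe3 (1.32 and 0.45). Mitf, a partner of PU.1 at osteoclast genes, rose in ID (1.32 ± 0.13) and was lower in SC (-0.31 ± 0.13, adjusted p = 0.0454), while Bhlhe40 rose in ID (1.75) and was at 0.05 in SC (adjusted p = 0.818). Nfatc2 fell at both (-1.90 in ID, and in SC with adjusted p = 0.000448), Nfatc3 fell slightly at both (-0.22 and -0.24), and Prdm1, which represses inhibitors of osteoclast formation, fell in ID (-1.03). Among 10 genes that restrain osteoclast formation, 6 were higher and 2 lower in ID gel (median 1.28), and 3 higher and none lower in SC gel (median 0.10). Irf8, which is switched off as osteoclasts form in culture, rose at both (3.11 ± 0.19 and 1.19 ± 0.18). Socs3 (3.67), Rbpj (2.41) and Id2 (2.36) rose in ID, whereas Bcl6 (-1.88) and Rcan1 (-0.56) fell.

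Of 25 tested fusion machinery genes of 30 listed, 19 were higher and 3 lower in ID gel (median 1.29), and 15 higher and 2 lower in SC gel (median 0.72). Ccl2, the monocyte chemokine, rose by 7.98 and 4.18, the integrin chain Itgb2 by 6.09 and 2.83, and Cybb, a macrophage marker as well, by 4.91 and 2.30. Sirpa, a receptor in cell to cell contact, rose by 2.71 and 0.79; its ligand Cd47 rose in ID (0.63 ± 0.10) and was at 0.22 in SC (adjusted p = 0.0599). Itgb3, whose product with Itgav forms the osteoclast vitronectin receptor, was called at neither site (-0.04 ± 0.18, adjusted p = 0.863, and 0.16 ± 0.18, adjusted p = 0.480). The genes that fell in ID were the epithelial cadherin Cdh1 (-2.18), Sh3pxd2a (-0.86) and Myo10 (-0.62). Of the 5 tetraspanins that share the TspanC8 group with Tspan10, 3 were higher (Tspan5 by 1.57, Tspan17 by 0.98, Tspan14 by 0.71) and 2 lower in ID gel, Tspan15 (-1.46) and Tspan33 (-1.21, adjusted p = 0.0375).

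Genes of resorption and acid secretion were higher in 15 of 17 tested and lower in 1 in ID gel (median 1.93), and in 12 and none in SC gel (median 0.73). Mmp9, a gelatinase of osteoclasts and neutrophils, went from 0.680 ± 0.606 to 1128 ± 413 CPM in ID (10.69 ± 0.90) and from 0.544 ± 0.262 to 103 ± 126 in SC (7.54 ± 0.83). Tcirg1, the a3 subunit that places the pump in the osteoclast membrane, went from 14.6 ± 0.927 to 372 ± 56.7 CPM in ID (4.67 ± 0.33), and reached 105 ± 71.4 in SC gel (2.72 ± 0.30). The cathepsins Ctsb (3.51 in ID) and Ctsd (3.12 in ID), general lysosomal proteases, rose at both sites, and Rab38 fell in ID (-0.99) and rose in SC (0.43). Of the other V-ATPase subunits, 13 of 16 tested were higher and 2 lower in ID gel (median 1.32), and 11 higher and 1 lower in SC gel (median 0.42). Atp6v1b2 (3.33 and 1.70) and Atp6ap2 (2.95 and 1.40) rose at both sites, and the subunit Atp6v1c2 fell in ID (-1.68) and rose in SC (1.11). Atp6v0e2 fell at both (-0.92 and -0.49). The sum of 4 keratinocyte markers was 1464 to 5372 CPM in ID gel against 5408 to 10309 in ID saline, and 13225 to 20211 in SC gel against 5164 to 7003 in SC saline. The sum of 5 mast cell markers moved likewise, at 24.7 to 58.0 CPM against 81.5 to 122, and 152 to 263 against 90.6 to 120. The part of these cells in the values of Atp6v1c2, Rab38, Il34 and Cdh1 was not tested. Against these counts, 36.6% of all genes tested were higher and 37.0% lower in ID gel, and 24.7% and 26.1% in SC gel.

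**Figure D5:**
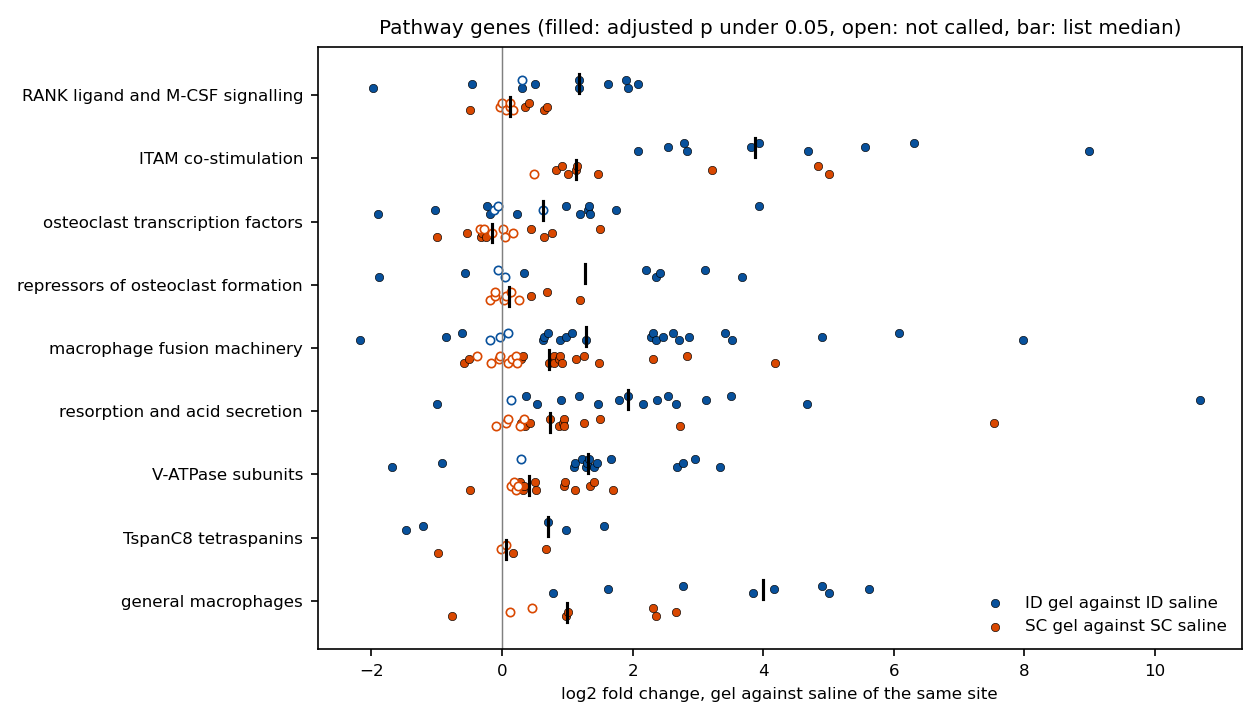
Log2 fold change of gel against saline of the same site for each tested gene of 8 pathway lists and the general macrophage markers, ID in blue and SC in orange; filled points have an adjusted p under 0.05 in edgeR's quasi-likelihood test and black bars are list medians. The ITAM list has medians of 3.88 (ID) and 1.14 (SC), against 0.63 and -0.15 for the transcription factors.

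The calcitonin receptor Calcr, which among macrophage-lineage cells marks mature osteoclasts, had no more counts with gel than with saline at either site. At the ID site it had 32 counts with saline and 2 with gel (highest gel library 0.0740 CPM), and at the SC site 35 and 21, too few for the test. General macrophage markers were higher in 8 of 8 in ID gel (median 4.00), and 5 higher and 1 lower, Adgre1 (-0.76), in SC gel (median 1.00). The sum of 9 bone and cartilage markers was at least 9.23 CPM in every saline library, 28.1 to 52.6 in ID gel and 4.48 to 8.65 in SC gel. In ID gel it was mostly Sost, a gene of osteocytes, at 35.7 ± 8.79 CPM against 1.04 ± 0.418 in ID saline (5.07 ± 0.40, adjusted p = 8.55e-11). Sost was also the 1 list gene called higher in SC gel (1.52). Of the 4 list genes tested, Ibsp was also higher in ID gel (1.58), while Dmp1, another osteocyte gene, was lower at both sites (-2.48 in ID), as was the cartilage gene Acan (-3.80 and -1.61). The dendritic cell sum was 118 to 189 CPM in ID gel, 29.4 to 73.5 in SC gel and 18.3 to 30.7 in saline, and the T cell sum 47.3 to 95.5, 11.2 to 24.1 and 8.55 to 11.1. The T cell genes did not move together. Of 6 tested, 4 were higher and 2 not called in ID gel, and 2 higher and 4 not called in SC gel. Cd8a rose by 5.63 in ID gel, whereas Cd3e (0.48) and Cd3g (0.56) were not called there. The part of these cell types in the levels of the 8 genes was not tested.

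By the root mean square difference of centred log2 CPM over 24 libraries and 14762 other genes, the pattern most like that of Dcstamp was Ocstamp (0.579), and others near it were Gpnmb (0.594), ENSRNOG00000068609, which has no symbol, and Lilrb3 (0.634); Atp6v0d2 ranked 8 and Tspan10 ranked 36. Gpnmb, a lysosomal glycoprotein of macrophages, averaged 228 CPM with saline and 16366 with gel at the ID site, and 215 and 4224 at the SC site. For Ctsk the nearest were Gask1b (0.168), Ctsa (0.183), Lgals1 (0.183), Sin3b (0.198) and Myof (0.204). Acp5 ranked 566 for Ctsk (0.382). These genes share libraries and the gel to saline contrast, and the measure is a description.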

How the data were processed

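Stranded mRNA libraries from Trizol-extracted dorsal skin RNA were sequenced as paired ends on an Illumina instrument, per the labels' protocols and the series' design text. Per the file headers, the authors deposited 1 table of genes that holds, per library, a count of reads and an FPKM. The count columns are raw whole numbers. The deposited FPKM equalled count over gene length and library total, within a ratio of 0.9997 to 1.000, so it carries no composition scaling. The submitters' processing notes name DESeq2 1.12.4, StringTie 1.3.3b, Trimmomatic 0.36 and FastQC 0.11.2, with the build Rnor_6.0, without role or order. How reads were aligned, strand was set and shared reads were handled was not given in the sources used here. Coordinates of genes are those of the file, whose build could not be settled; promoter windows are from RefSeq, build GRCr8.

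Columns were joined to samples by library names in the labels; the table places each saline group beside the gel group of the other site, so the saline group of the other site was tried as an alternative. Counts were fitted with edgeR 4.0.16 (R 4.3.3) for 14763 genes kept by filterByExpr, with TMM factors, 1 mean per group over 24 libraries (20 residual degrees of freedom) and edgeR's quasi-likelihood test, and Benjamini-Hochberg adjustment was over all genes tested. Log2 fold changes carry the SE implied by the test. Where a saline group held few or no counts, a bound (floor of 3 counts, over the group) or a ratio of CPM with a 95% Clopper-Pearson interval replaces the fitted fold. Ratios to macrophage markers and the d subunit share used exact permutation tests over libraries. The method was tested on simulated data in which few genes changed, as many up as down. Such data cannot test the scaling where as many genes differ as here. Alternatives were DESeq2 1.42.0, limma 3.58.1 (voom, and log2 FPKM with 1 or 0.1 added where 6 libraries reached 1 FPKM), RLE factors, other filters, only the groups compared, a replicate block, gel replicates 1 to 3 or 4 to 6, a log2 change of 1 or more, leaving out each library, other marker denominators, and counts in place of FPKM.

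The members and lists were chosen with earlier results of these data known. Of 216 list entries, 14 had no match and 1 was left out because its name and Entrez number disagreed. Named list genes were those with the largest called change in ID gel, those called against their list's direction, and a fixed set of 16; other genes of the same lists named in the text were chosen after their values were seen. Some genes that this rule names are not reported here.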

Additional observations from a re-analysis of the deposited data

Results flagged for a closer look

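In 28 groups of 6 libraries with any spread, the highest or lowest library was set against the others by Dixon's ratio, and 6 were marked. In 2 of these (Dcstamp and Tspan10 in SC saline) 1 library alone had counts, which marks it by construction; chance marks about 1 in 20 of the others. Among saline libraries, replicate 3 of SC saline held 0.128 CPM of Dcstamp with the other 5 at 0, and 0.321 CPM of Atp6v0d2 with the next at 0.0743. Tspan10 had 0.0511 CPM in SC saline replicate 1 and 0 in the other 5. These rest on 1 to 5 counts each. Among gel libraries, ID gel replicate 3 held 14.4 CPM of Dcstamp with the next at 7.48. SC gel replicate 2 held 7.23 CPM of Ocstamp with the next at 2.74, and 68.8 CPM of Acp5 with the next at 47.5.

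The gel effect at the ID site exceeded that at the SC site in edgeR's quasi-likelihood test of the difference for 3 genes: Ctsk by 1.22 ± 0.30 on the log2 scale (adjusted p = 0.00137), Acp5 by 0.70 ± 0.21 (adjusted p = 0.00726) and Nfatc1 by 0.57 ± 0.18 (adjusted p = 0.0109).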

How the results depend on the processing

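In every setting that scored them, the gel against saline calls of all 8 genes held in ID. In SC the 7 calls held as well, except that of Tnfrsf11a, which ended with gel replicates 4 to 6. The limit of 1 log2 unit was used only to count called genes over all genes tested. Under that limit lie the ID effects of Nfatc1 (0.43) and Tnfrsf11a (0.63) and the SC effects of Ctsk (0.68) and Tnfrsf11a (0.49). A filter of 10 counts in 12 libraries left out Dcstamp, Ocstamp and Tspan10. Called genes numbered 10868 (ID), 7504 (SC), 8234 (difference), 10050 (ID gel against SC gel) and 475 (saline against saline); with a limit of 1 log2 unit they numbered 5280, 2164, 4099, 4137 and 92. The saline count was 316 with no filter and 1038 under DESeq2. Leaving out 1 library gave 10587 to 10941, 7101 to 7577, 7784 to 8437, 9520 to 9989 and 132 to 888. The replicate block gave 10918, 7542, 8250, 9967 and 529 and changed no call of the 8 genes. Whether the numbers pair the samples is not stated in the labels. Same-number correlations ran from -0.24 to 0.42, with at most 3 of 6 best with their own number, in ID gel against SC gel. Such correlations cannot decide whether samples were paired.

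With the saline group of the other site, the difference between sites turned for Dcstamp (-0.55), Atp6v0d2 (-0.51) and Tnfrsf11a (-0.47, adjusted p = 0.0263). It also turned for Tnfrsf11a on FPKM (-0.20 with 1 added, -0.23 with 0.1) and without SC saline replicate 2 (-0.034). The SC effect of Nfatc1 turned on FPKM (0.12 and 0.13) and without SC saline replicate 2 (0.082). The cause was not tested. FPKM moved the median of all genes to -0.10 in ID, 0.19 in SC and -0.16 in ID gel against SC gel, and the share of calls that were higher in SC from 48.7% to 74.6%, in the difference from 58.8% to 31.7% and in ID gel against SC gel from 58.9% to 34.5%. Without SC saline replicate 2 the SC share was 64.5% and that of the difference 47.4%.

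Relative to macrophage markers, Csf1r alone gave 0.15 (Dcstamp), 0.65 (Ocstamp), -0.071 (Atp6v0d2) and -0.32 (Ctsk), Mpeg1 alone gave -1.17 (Ocstamp) and -0.029 (Tspan10), and 0.1 CPM added gave -0.76 (Dcstamp). Leaving out 1 library gave -1.33 to -0.95 for Dcstamp, 0.44 to 0.68 for Tspan10 and -0.79 to 1.89 percentage points for the d subunit share. Depth limits the 4 genes near 0 in saline, where 1 count is about the detection limit.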
